A study of Mus musculus with 4 samples.

Results

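The 33 genes described here act in ribosome biogenesis: 8 encode RNA polymerase I subunits and nucleolar factors, 4 snoRNP proteins, 9 factors of the small and 11 of the large ribosomal subunit, and 1, Rcc1, a regulator of nuclear transport. They were taken as a list of names, from Ncl and Npm1 to Ftsj3 and Tsr1, and matched to the probe sets of an Affymetrix array whose annotation names only that gene. The list was chosen with earlier results of these data known. All 33 were on the array and all 33 passed a level filter (highest of the 4 arrays at an intensity of at least 157, the median of all values), among 12239 genes that did. Each gene is given on its brightest probe set (by mean log2 over the arrays), and 30 further probe sets of 21 of the genes that passed the filter serve as a check.

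Ribosomes are built in the nucleolus, where RNA polymerase I transcribes a long precursor that small nucleolar ribonucleoproteins (snoRNPs) modify and that large complexes cut and fold into the small and the large subunit. The work is costly for a cell, and its genes are known targets of MYC, which drives growth. Fbw7, encoded by Fbxw7, is the substrate-binding part of an SCF ubiquitin ligase that marks MYC, cyclin E and Notch for degradation, and quiescent blood stem cells are known for low protein synthesis.

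Mouse bone marrow was sorted into LSK cells (lineage markers absent, Kit and Sca1 present), which hold the stem cells and multipotent progenitors, and myeloid progenitors (MP; Kit present, Sca1 absent). Wild-type (WT) and Fbw7-deficient cells of both kinds made 4 groups, with 1 array each. For each genotype 3 mice gave marrow to 1 pool, from which both populations were sorted, so they come from the same animals, and every mouse, WT included, had been given 3 intraperitoneal doses of polyI:C at 20 ug per g and was sampled 2 weeks later. The study's title names stem cell quiescence as its question, and the MP cells served to tell which genes belong to LSK cells. The sources used here do not state the allele, the deleter, or the age and strain of the mice. No group has a replicate, so values are differences between single arrays, with no error, no test and no p-value, and the number of arrays limits the precision.

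The 4 arrays had median intensities from 155 to 159 over all probe sets. The WT LSK array, which enters the LSK genotype difference and the WT LSK against MP difference, had the highest 3′ to 5′ ratio of control probe sets for Gapdh (4.30, against 2.60 to 2.95 on the other arrays), which rises when transcripts are shortened, and also of Actb (3.53, against 2.67 to 2.99). Stem cell markers were higher in LSK than in MP in WT mice for 13 of 13 measured genes, where 48.0% of all genes were. Among them were Hlf (5515 against 478) and Mecom (3043 against 145). Mpo, the myeloperoxidase gene of myeloid progenitors, read 24989 in LSK and 36135 in MP. Fbxw7 read 1355 in WT and 1103 in Fbw7-deficient LSK, and 691 and 958 in MP. The removed exons are not stated, so Fbxw7 does not check the labels.

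In LSK cells all 33 genes were higher on the Fbw7-deficient than on the WT array, where 50.7% of all genes past the filter were above 0. The median log2 difference of the 33 was 0.37, against 0.00 over all 12239 genes, and the values ran from 0.12 for Npm1 and Rrs1 to 1.06 for Ftsj3. A log2 difference of at least 0.322 was taken as the bound for a call, and 21 of the 33 reached it, where 13.2% of all genes did, and 1 gene was at least 2-fold higher, where 1.79% were. Restricted to the 7140 genes within the range of mean levels of the 33, the share above 0 was 49.0% and the share past the bound 15.0%. Most differences were thus small, and on the brightest probe sets all had 1 direction. With the mean of all probe sets of a gene, 32 of the 33 were above 0. With the arrays shifted to the same median, 18 were past the bound.

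**Figure D1:**
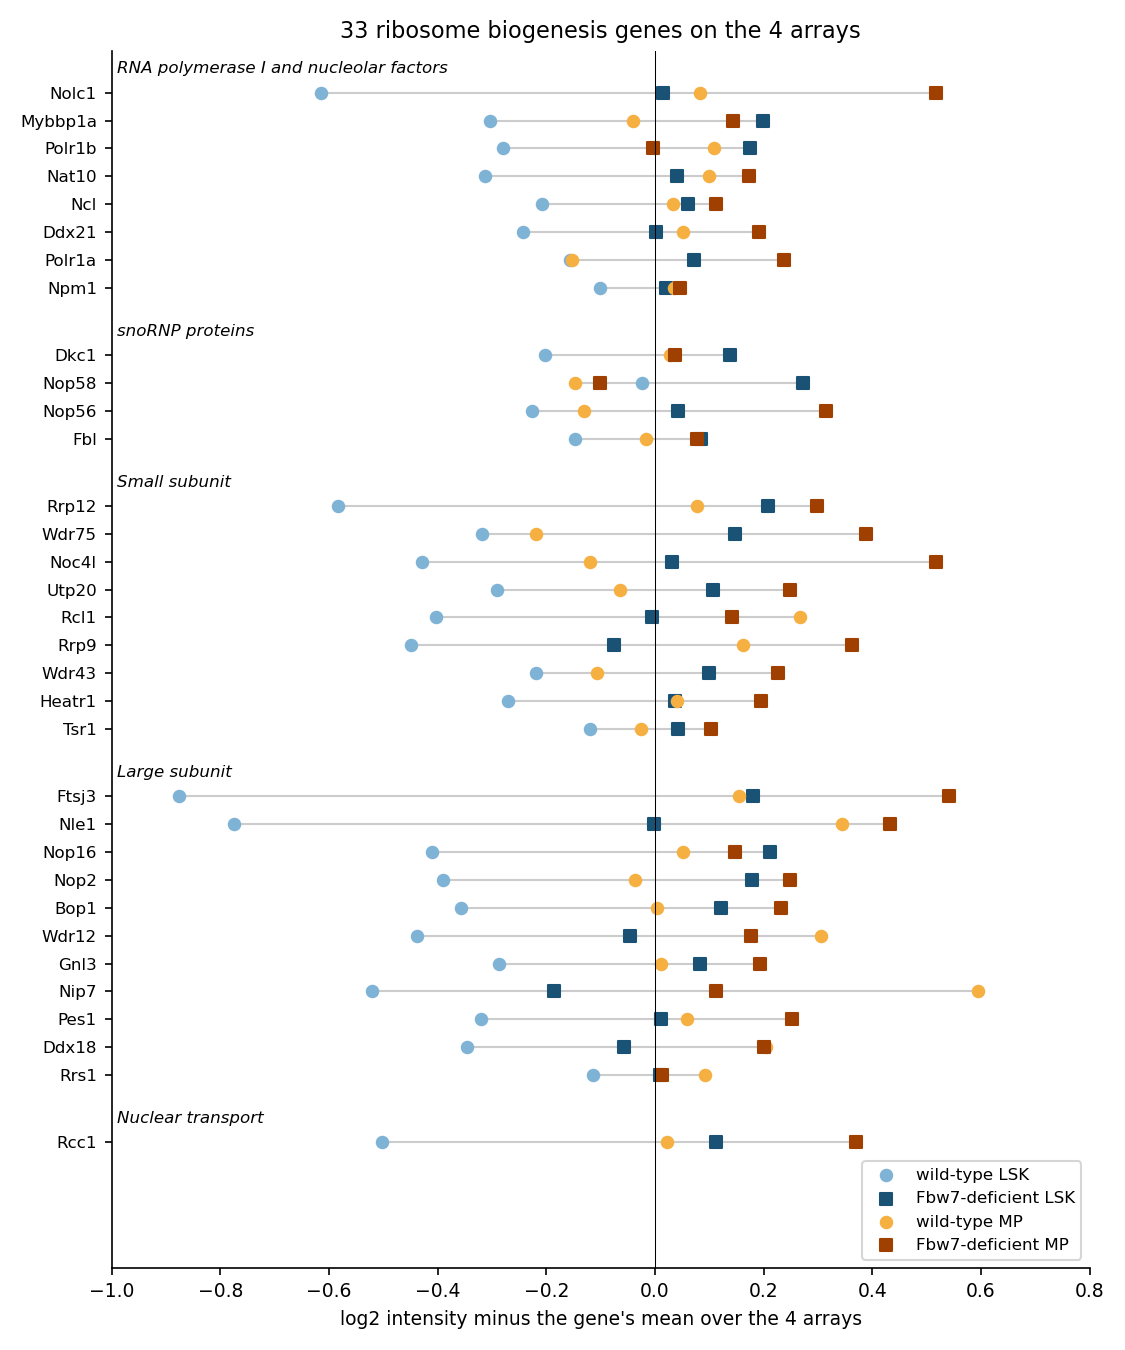
Each row is 1 gene, grouped by role. The points give its log2 intensity on each of the 4 arrays minus its mean over them (x axis, log2 units). The WT LSK point is the leftmost for 32 of the 33 genes, and for Nop58 it is not.

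The WT LSK array read lowest of the 4 for 32 of the 33 genes, which was so for 36.5% of all genes. The exception was Nop58, a core protein of box C/D snoRNPs, which read 3943 in WT LSK, 3622 in WT MP and 3736 in Fbw7-deficient MP. The Fbw7-deficient MP array was highest for 22 of the 33, where it was for 31.1% of all genes. The Fbw7-deficient LSK array was highest for 6 (16.5% of all genes) and the WT MP array for 5 (18.4%), both near the share of all genes. The LSK genotype difference and the WT LSK against MP difference share that array, which also had the high 3′ to 5′ ratios. The part of that ratio in the differences was not tested.

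Among the factors that transcribe ribosomal DNA or sit with it in the nucleolus, Polr1b, the second largest subunit of RNA polymerase I, read 1901 in WT LSK, 2606 in Fbw7-deficient LSK, 2488 in WT MP and 2303 in Fbw7-deficient MP (log2 difference between genotypes 0.46 in LSK and -0.11 in MP). The largest subunit, Polr1a, read 1737, 2035, 1742 and 2281 in that order (0.23 and 0.39). In LSK both subunits were higher in the Fbw7-deficient array, and in MP their values go opposite ways. A further probe set of Polr1a, at 682 in WT and 1141 in Fbw7-deficient LSK, gave a larger log2 difference of 0.74.

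Nolc1, a chaperone that shuttles snoRNPs between nucleolus and Cajal bodies, was the member of this group with the largest LSK difference. It read 3574 in WT LSK, 5534 in Fbw7-deficient LSK, 5795 in WT MP and 7834 in Fbw7-deficient MP, 1.55-fold higher between genotypes in LSK and 1.35-fold in MP. Both Fbw7-deficient arrays are above the WT array of their population. Its 2 further probe sets had log2 differences of 0.49 and 0.98 in LSK.

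Mybbp1a, a nucleolar MYB-binding protein that takes part in ribosomal RNA processing, read 4952, 7018, 5947 and 6754 in that order (0.50 in LSK, 0.18 in MP). Nat10, the acetyltransferase of ribosomal RNA, read 1769.6, 2261, 2354 and 2476 (0.35 and 0.07). The helicase Ddx21, which binds ribosomal RNA and nascent transcripts, read 3158, 3744, 3872 and 4268 (0.25 and 0.14), and its dimmer probe set gave 0.70 and 0.63. On their brightest probe sets these 3 genes were higher in both populations of the Fbw7-deficient mice, with the larger value in LSK. A dim further probe set of Nat10, with the _x_ mark, went the other way in LSK (-0.25, and 0.36 in MP).

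Ncl and Npm1 had the brightest probe sets of the 33 genes. Nucleolin, encoded by Ncl, read 16559.5 in WT LSK, 19948 in Fbw7-deficient LSK, 19566 in WT MP and 20658 in Fbw7-deficient MP (0.27 in LSK and 0.08 in MP). Nucleophosmin, encoded by Npm1, a histone chaperone and carrier of ribosomal subunits, read 25823, 28096, 28378 and 28612 (0.12 and 0.01). On dimmer probe sets the LSK difference ran from -0.06 to 0.77 for Ncl (4482 to 7635 at the highest) and was 0.53 for Npm1 (10889.5 to 15708).

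The snoRNP proteins act on ribosomal RNA through guide RNAs, either as methylation complexes of the box C/D kind or as pseudouridylation complexes of the box H/ACA kind. All 4 were higher in Fbw7-deficient LSK by similar amounts, from 0.23 to 0.34. The methyltransferase Fbl (fibrillarin) read 11861 in WT and 13922 in Fbw7-deficient LSK (0.23), Nop58 3943 and 4841 (0.30), and Nop56 5681 and 6842 (0.27). Dkc1 (dyskerin), the pseudouridine synthase that also belongs to telomerase, read 6564 and 8315 (0.34). In MP, Nop56 had the largest difference of the 4 on the brightest probe sets, at 6070.03 in WT and 8263 in Fbw7-deficient cells (0.44, and 0.18 on its other probe set), while Fbl (12983 and 13858), Nop58 (3622 and 3736) and Dkc1 (7702 and 7749) had log2 differences of 0.09, 0.04 and 0.01. The 2 further probe sets of Dkc1 disagreed in MP, at 0.33 and -0.18.

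The small subunit is cut from the precursor inside a large particle, the small subunit processome. Its 9 members here had a median LSK difference of 0.40, with 6 past the bound, where 13.2% of all genes were. Rrp12, needed for export of both subunits, had the largest value of the group and read 391 in WT LSK, 677 in Fbw7-deficient LSK, 618 in WT MP and 721 in Fbw7-deficient MP (0.79 in LSK and 0.22 in MP). The WT LSK array lies apart from the other 3 for this gene. It has no further probe set.

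Wdr75 and Wdr43, WD-repeat proteins of the processome's first-bound part, were higher in both populations. Wdr75 read 2154, 2973, 2308 and 3516 in that order of arrays (0.46 in LSK and 0.61 in MP), and Wdr43 read 3646, 4546, 3940.4 and 4965 (0.318, just under the bound, and 0.334). Heatr1, a large scaffold of the same part that is also needed for transcription by RNA polymerase I, read 4122, 5099.9, 5113 and 5695 (0.31 and 0.16). For Wdr75 the MP difference was the larger. For Wdr43 both were nearly equal, and its further probe set gave 0.48 in LSK and 0.06 in MP.

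Noc4l, a nucleolar protein of small subunit assembly, had the largest MP difference of all 33 genes. It read 2693 in WT LSK, 3705 in Fbw7-deficient LSK, 3337 in WT MP and 5186 in Fbw7-deficient MP (0.46 in LSK and 0.64 in MP). Its probe set carries the _x_ mark of possible cross-hybridization, but the 3 others of the gene gave between 0.45 and 0.61 in LSK and between 0.50 and 0.74 in MP. Each of its 4 probe sets was higher on both Fbw7-deficient arrays.

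Utp20, a processome protein, read 2858, 3763, 3339.8 and 4149 (0.40 and 0.31). Rrp9, which binds the U3 snoRNA that guides the first cuts, read 1401, 1815, 2139 and 2460.1 (0.37 and 0.20). Both were higher on the Fbw7-deficient array in each population. Rcl1, a cyclase-like processome protein, read 1757, 2312, 2792 and 2561 (0.40 and -0.12), and so was lower on the Fbw7-deficient array in MP. Tsr1, a late factor of the small subunit, read 7415, 8299.6, 7916 and 8656 (0.16 and 0.13), the smallest LSK difference of this group.

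The large subunit factors included the gene with the largest LSK difference, Ftsj3. Among the roles with more than 1 gene they had the widest median gap between LSK and MP in WT mice. Of the 11 genes, 9 were past the bound in Fbw7-deficient LSK, where 13.2% of all genes were. Their median log2 difference was 0.39 (0.40 for the small subunit). In MP the median was 0.10, with 7 of the 11 (63.6%) above 0, where 49.6% of all genes were. Ftsj3, a methyltransferase-like protein of pre-ribosomal RNA processing, was the gene past 2-fold: it read 458 in WT LSK, 952 in Fbw7-deficient LSK, 935 in WT MP and 1222 in Fbw7-deficient MP (2.08-fold in LSK and 1.31-fold in MP). Nle1, a WD-repeat protein that works with the Mdn1 remodelling enzyme to mature the large subunit, read 478, 816, 1038 and 1103 (0.77 and 0.09). For both genes the WT LSK array reads well under the other 3, and each has this probe set only.

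Pes1, Bop1 and Wdr12 form the PeBoW complex, which is needed to process the large subunit's RNA. Bop1 read 2192, 3054, 2815 and 3295 in the same order (0.48 in LSK and 0.23 in MP), Wdr12 read 3000.1, 3935, 5021 and 4591 (0.39 and -0.13), and Pes1 read 2822, 3549, 3669.9 and 4195 (0.33 and 0.19). All of the complex was higher in Fbw7-deficient LSK on these probe sets. Each has a dimmer probe set on which it was not: the LSK differences there were -0.26 for Wdr12, -0.12 for Pes1 and -0.0013 for Bop1.

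Nop2, the methyltransferase of large subunit RNA, read 1542, 2288, 1971 and 2403 (0.57 in LSK and 0.29 in MP). Nop16, a nucleolar protein induced by MYC, read 1418, 2183, 1952 and 2088 (0.62 and 0.10). In Fbw7-deficient LSK both read above WT MP. A dim further probe set of Nop16 had a genotype difference of 0.03 in LSK and -0.02 in MP. Gnl3 (nucleostemin), a GTP-binding protein of stem and tumour cells, read 4696, 6070.0, 5772 and 6545 (0.37 and 0.18), and the helicase Ddx18 read 2372, 2899, 3475 and 3464 (0.29 and -0.00).

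Rrs1, which brings a small ribonucleoprotein of the large subunit into the pre-ribosome, read 12101 in WT and 13179 in Fbw7-deficient LSK on a probe set with the _x_ mark (0.12), and 3409 and 5042 on its other probe set (0.56). In MP it read 13964 and 13216 on the first (-0.08) and 6382 and 5175 on the other (-0.30). The probe sets share the direction in each population and differ in size.

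Nip7, a late factor of the large subunit, was the 1 gene past the bound in opposite directions in LSK and MP. It read 2508 in WT LSK, 3166 in Fbw7-deficient LSK, 5437 in WT MP and 3889.7 in Fbw7-deficient MP (0.34 in LSK and -0.48 in MP). Its dimmer probe set gave -0.52 in LSK (669 to 467) and -0.09 in MP, so the LSK direction of Nip7 rests on the brighter one. Rcc1, the exchange factor of the Ran GTPase that gives nuclear transport its direction, is not an assembly factor itself. It read 1525, 2335, 2193 and 2791 (0.61 in LSK and 0.35 in MP).

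In MP cells 27 of the 33 genes were higher on the Fbw7-deficient array, where 49.6% of all genes were above 0, and the median was 0.16 against -0.00. Past the bound were 8 (Noc4l, Wdr75, Nop56, Nolc1, Polr1a, Ftsj3, Rcc1 and Wdr43), where 10.9% of all genes were, and 1, Nip7, was past it downward, where 13.8% were. The 6 genes below 0 on their brightest probe sets were Nip7, Wdr12, Rcl1, Polr1b, Rrs1 and Ddx18, of which 4 belong to the large subunit. On further probe sets Nip7 (-0.09) and Rrs1 (-0.30) were below 0 as well. Wdr12 (0.06) and Ddx18 (0.33 and 0.11) were above 0 there. Of the genes above 0, a further probe set was below 0 for Ncl (-0.41), Dkc1 (-0.18), Bop1 (-0.16), Heatr1 (-0.14), Tsr1 (-0.10), Fbl (-0.04), Nop16 (-0.02) and Npm1 (-0.0013). Among the 8 past the bound, Polr1a gave 0.01 and 0.33 on further probe sets, and Nolc1 0.04 and 0.82. In 19 of all 30 further probe sets the direction was that of the brightest one. The MP genotype difference does not use the WT LSK array.

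The genotype difference was larger in LSK than in MP for 28 of the 33 genes and for 6121 of all 12239. By at least 0.322 it was larger for 9 of the 33, where 15.0% of all genes were, and for none was it smaller by as much, where 15.8% of all genes were. The median of the difference between the genotype differences was 0.20 (log2), and by role it was 0.29 for the large subunit, with all 11 genes above 0, and 0.08 for the small subunit, with 6 of 9. Across the 33 genes the LSK and MP differences had a Pearson correlation of 0.30, and across all 12239 genes of 0.44. Both populations of a genotype come from 1 pool of mice, and genes are not replicates, so the correlations describe these arrays.

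**Figure D2:**
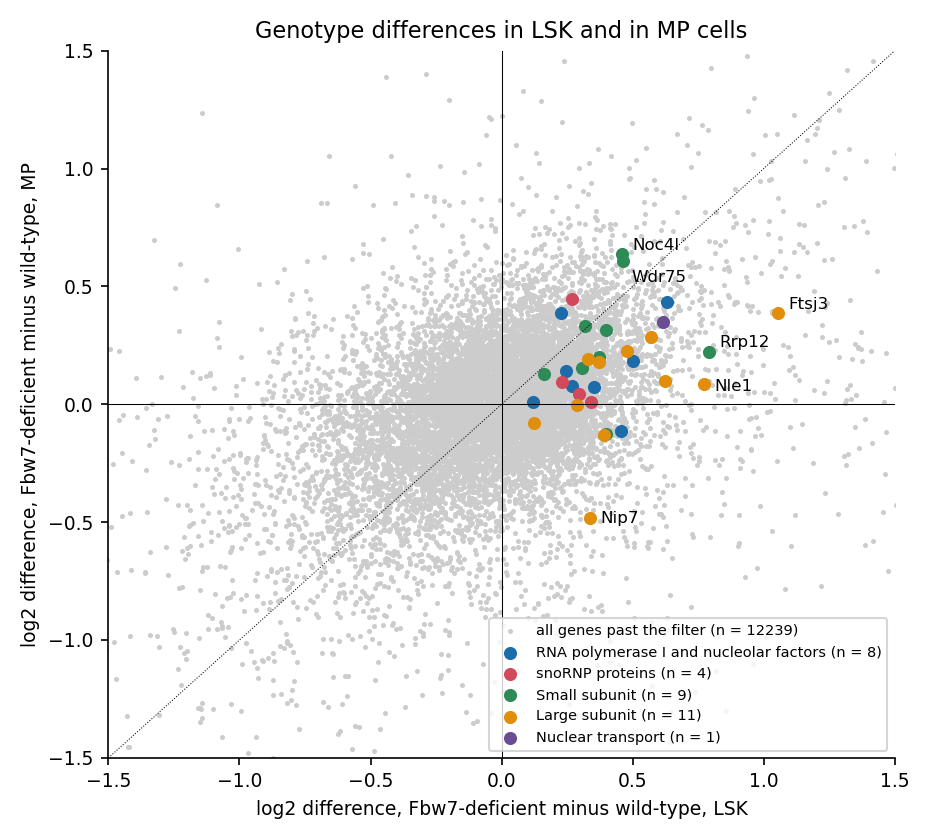
Each point is 1 gene, at its log2 difference between Fbw7-deficient and WT cells in LSK (x axis) and in MP (y axis). Coloured points are the 33 genes by role, grey points all 12239 genes past the filter that lie within the axes, and the dotted line marks equal differences. All 33 lie right of 0, 27 of them above 0 as well, and 28 lie under the dotted line.

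Wild-type LSK and MP cells differed in the reverse direction. In WT mice 32 of the 33 genes were lower in LSK than in MP, where 52.0% of all genes were below 0, with a median of -0.31. There were 16 past the bound, where 16.8% of all genes were, and 3 at least 2-fold lower (Nle1, Nip7 and Ftsj3, from -1.12 to -1.03), where 2.40% were. Of the roles with more than 1 gene, the large subunit had the widest gap, with a median of -0.46 and 9 of 11 genes past the bound. The snoRNP proteins had the smallest, with a median of -0.11 and none of 4. On further probe sets the gap was -0.38 for Fbl, -0.24 for Nop56, and -0.45 and -0.16 for Dkc1. Of all 30 further probe sets of the 33 genes, 12 were above 0 (median -0.23), where 48.3% of all further probe sets were. In 18 of the 30 the direction was that of the brightest probe set. The count of 32 thus holds for the brightest probe sets.

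In the Fbw7-deficient mice 27 of the 33 genes were lower in LSK than in MP, where 48.1% of all genes were, but by less: the median was -0.14, and 5 were past the bound (Nolc1, Noc4l, Rrp9, Nle1 and Ftsj3), where 13.6% of all genes were. Nop58 alone was past it in the other direction (0.37), where 19.9% of all genes were. Of the 30 further probe sets 15 were above 0 (median 0.01), where 53.3% of all further probe sets were. In 18 of the 30 the direction was that of the brightest probe set. The gap between LSK and MP, taken without its sign, was smaller in the Fbw7-deficient than in the WT mice for 27 of the 33 genes, or 81.8%, and for 57.8% of all genes. Its median was 0.16 in the Fbw7-deficient and 0.31 in the WT mice. With its sign, the gap changes between genotypes by the difference of the genotype differences given above. The narrower gap restates that difference on the same arrays and is no further finding. Of the widest WT gaps, Nle1 went from -1.12 to -0.43, Nip7 from -1.12 to -0.30 and Ftsj3 from -1.03 to -0.36. Picking genes by their WT gap favours a smaller gap in the other genotype, so these values are no further finding. On its dimmer probe set Nip7 had gaps of the opposite sign, 0.67 in WT and 0.24 in Fbw7-deficient mice.

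**Figure D3:**
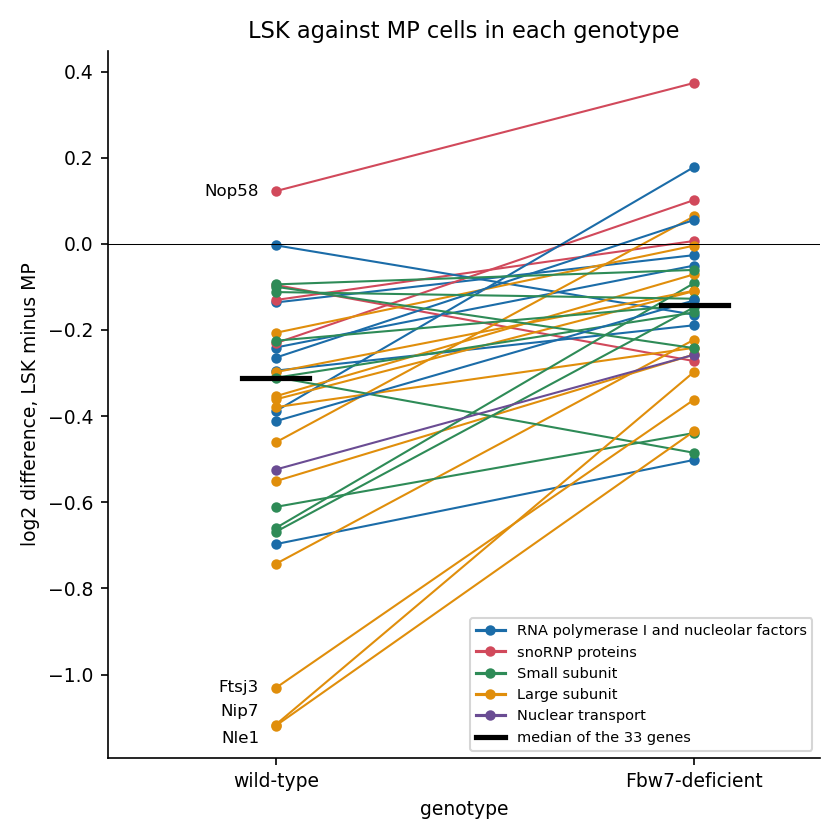
Each line is 1 of the 33 genes, joining its log2 difference between LSK and MP cells in WT mice (left) to that in Fbw7-deficient mice (right). The black bars are the medians of the 33 genes, -0.31 and -0.14, and the large subunit genes Nle1, Nip7 and Ftsj3 lie lowest in WT mice.

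For 20 of the 33 genes the Fbw7-deficient LSK array read above WT MP, while for 13 it lay between WT LSK and WT MP. Of all genes 52.6% read above WT MP, near the 60.6% of the 33, and 23.7% lay between, against 39.4%. Nop58, Mybbp1a, Polr1b, Nop2 and Nop16 were among those above. Markers of maturing myeloid cells moved with the genes in LSK. Of the granulocyte and monocyte progenitor markers 9 of 9 measured were higher in Fbw7-deficient LSK, where 50.7% of all genes were. In MP 6 of the 9 were higher, where 49.6% of all genes were, with none past the bound upward. Past it downward were 2, Irf8 (-1.56) and Csf1r (-1.22), where 13.8% of all genes were. The summed intensity of the 9 markers was 60697 in WT LSK, 115742 in Fbw7-deficient LSK, 156620 in WT MP and 150443 in Fbw7-deficient MP. Their defining genes were not near 0 in WT LSK, where Elane read 1322, and it read 9986 in Fbw7-deficient LSK.

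Erythroid markers were higher in 11 of 11 genes in LSK and in 11 of 11 in MP, where 50.7% and 49.6% of all genes were. Their summed intensities were 16158, 43988, 51433 and 85667 in the order of arrays used above. Mature neutrophil and macrophage markers were higher in 10 of 10 genes in LSK and in 6 of 10 in MP (59940, 123640, 92535 and 100264). The count in MP is near the share of all genes, with none past the bound upward and 3 downward, where 10.9% and 13.8% of all genes were. Stem cell markers were lower in 13 of 13 in LSK and in 11 of 13 in MP (62151, 36879, 24089.7 and 12511), and B and plasma cell markers were higher in 6 of 7 in LSK and in 1 of 7 in MP (2298, 5897, 6779 and 1934). In sorted pools a changed mix of cells and changed RNA per cell cannot be told apart, and the part of these cells in the differences of the ribosome biogenesis genes was not tested.

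Genes of DNA replication and mitosis had a smaller median. Of 19 measured, 14 were above 0 in LSK, where 50.7% of all genes were, with a median of 0.15. Past the bound upward were 6 (31.6%), where 13.2% of all genes were, and none downward. In MP 11 were above 0, where 49.6% of all genes were, with a median of 0.07. Their LSK values ran from -0.19 for Tyms to 0.60 for Birc5 and 0.58 for Rrm2. Mki67, a marker of cycling cells, had a log2 difference of 0.16 in LSK, and the 6 replication helicase genes Mcm2 to Mcm7 ran from -0.08 for Mcm4 to 0.10 for Mcm3. In MP 5 of the 19 (26.3%) were past the bound upward, where 10.9% of all genes were, and none downward. Between WT LSK and MP the median of these genes was 0.04, where the ribosome biogenesis genes had -0.31.

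The rest of the pathway was described with a list of 157 other ribosome biogenesis genes, of which the array names 153, and 152 of these were past the level filter. In LSK 138 of the 152 were above 0, where 50.7% of all genes were, with a median of 0.21. Past the bound upward were 52, where 13.2% of all genes were, and none downward, where 17.2% were. In MP 122 of the 152 were above 0, where 49.6% of all genes were, with a median of 0.16. Past the bound in MP were 37 upward and 2 downward (10.9% and 13.8% of all genes). The median of the 33 genes was above that of the wider list in LSK, 0.37 against 0.21, and the same to the second decimal in MP, 0.16. Both the 33 and the wider list were chosen with earlier results of these data known. Neither the higher LSK median of the 33 nor the direction of the wider list is thus an independent finding.

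**Figure D4:**
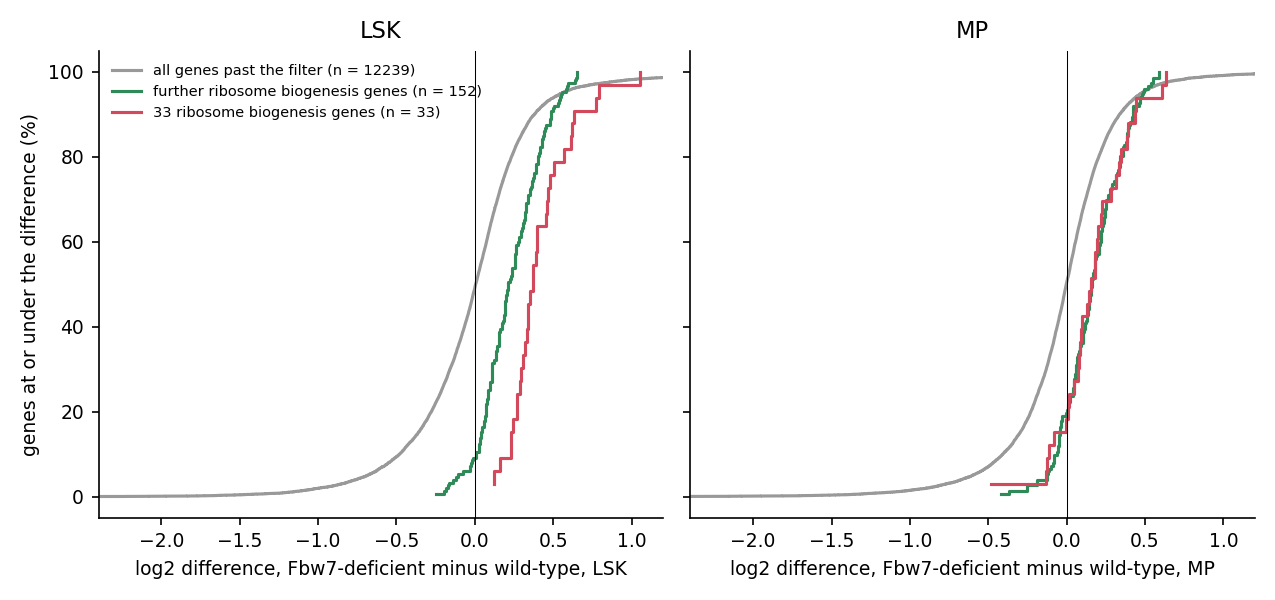
The curves give the share of genes (y axis, percent) at or under each log2 difference between Fbw7-deficient and WT cells (x axis) in LSK (left) and MP (right), for the 33 genes, the 152 further ribosome biogenesis genes and all 12239 genes. In LSK the curve of the 33 starts at 0.12, and its median of 0.37 lies right of 0.21 for the further genes; in MP both medians are 0.16.

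The largest LSK differences of the wider list were in Pno1 and Ltv1, late factors of the small subunit, Utp6, of the processome, Lyar, a nucleolar zinc finger protein, and Wdr74, of the large subunit. Pno1 read 2392 in WT LSK, 3756 in Fbw7-deficient LSK, 3401 in WT MP and 4385 in Fbw7-deficient MP (0.65 in LSK and 0.37 in MP), and Utp6, Lyar, Wdr74 and Ltv1 had LSK differences of 0.65, 0.64, 0.64 and 0.59. Ltv1 read 1053, 1587, 2294 and 1781, and so was higher in Fbw7-deficient LSK and lower in Fbw7-deficient MP (-0.37), as Nip7 was. The lowest LSK values were in Isg20l2 (-0.25), Abt1 (-0.20), Nop53 (-0.18), Nsa2 (-0.17) and Polr1f (-0.17), none past the bound.

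In MP the largest of the wider list were Riok2, a kinase of late small subunit assembly (0.59), Nol12 (0.59) and Utp23 (0.55), and the lowest were Taf1b, a part of the selectivity factor that brings RNA polymerase I to its promoter (-0.42), Ltv1 (-0.37) and Esf1 (-0.26). Riok2 read 2601 in WT LSK and 1768 in WT MP and differed little between genotypes in LSK (-0.11). Taf1b, at 349 in WT and 453 in Fbw7-deficient LSK (0.38), went opposite ways in LSK and MP.

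Of the MYC network, which acts on these genes, Myc read 5608 in WT LSK, 6407 in Fbw7-deficient LSK, 4073 in WT MP and 4457 in Fbw7-deficient MP (0.19 in LSK and 0.13 in MP), and so was higher in LSK than in MP, unlike 32 of the 33 genes. Its partner Max read 404, 664, 504 and 503 (0.72 and -0.00), and Mycn 2551, 1976, 461 and 314 (-0.37 and -0.56). The list counted here also holds Fbxw7 itself (-0.30 in LSK) and genes that act against MYC. As a whole it had no common direction in LSK, with 5 of 10 genes above 0 and a median of -0.06. A median this near 0 depends on which genes are listed. Mxd1 and Mxd4, which pair with Max against MYC, went opposite ways: Mxd1 read 891, 1361, 912 and 811 (0.61 and -0.17), and Mxd4 read 2127, 875, 1132 and 857 and was the network's lowest value in LSK (-1.28). The arrays measure RNA, and the level of MYC protein, on which Fbw7 acts, is not seen.

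The LSK difference was larger in genes with lower signals. Ordered by mean level, the 11 dimmest of the 33 (mean intensities from 586 to 2322) had a median LSK difference of 0.57, the 11 in the middle 0.34, and the 11 brightest (4974 to 27704) 0.27. The Pearson correlation of mean log2 level and LSK difference across the 33 genes was -0.75. Over all 12239 genes it was 0.04, and the medians of all genes in the same 3 ranges of level were -0.03, 0.02 and 0.04. The points share their arrays, and the level enters with the difference on the same values, so this is a description.

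The further probe sets did not show larger LSK differences at lower signals. Of the 30 that passed the filter, 22 were above 0 in LSK, with a median of 0.36, where 52.3% of all 8648 further probe sets on the array were above 0. The 8 below 0, of Ncl, Ddx18, Bop1, Wdr12, Pes1, Nip7, Heatr1 and Nat10, all had mean intensities between 203 and 607. All 19 further probe sets with a mean of at least 750, a bound chosen after seeing the values, were above 0, with a median of 0.48. Under 750, 3 were above 0 and 8 below. In MP 20 of the 30 were above 0, with a median of 0.06, where 47.8% of all further probe sets were.

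**Figure D5:**
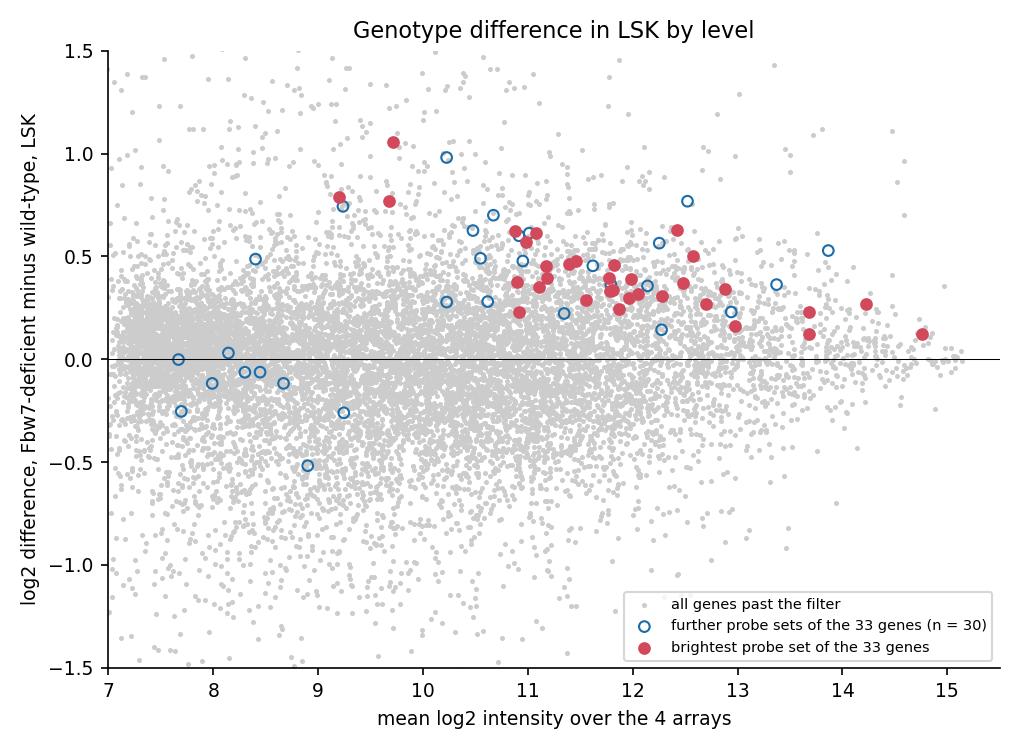
The log2 difference between Fbw7-deficient and WT LSK (y axis) is set against the mean log2 intensity over the 4 arrays (x axis) for the brightest probe set of each of the 33 genes (filled), their 30 further probe sets (open) and all genes past the filter that lie within the axes (grey). The filled points at the left, Rrp12, Nle1 and Ftsj3, lie at 0.79, 0.77 and 1.06, the rightmost, Npm1, lies at 0.12, and the open points under 0 all lie at low levels.

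The starts of these genes were searched for the letters CACGTG, the E-box that MYC and Max bind, since the genes moved together and MYC is a target of Fbw7. Promoter sequences from RefSeq (build GRCm38.p6) run from 250 bases before to 50 bases after a gene's start, and 28 of the 33 genes have an entry. In 7 of the 28 (25%) the window held CACGTG, which reads alike on both strands, against 7.15% of all 32851 windows, 11.5% of the 9897 genes past the level filter that have an entry, and 22 of 124 (17.7%) of the further ribosome biogenesis genes. The sites of the 7 genes are shown with the E-box in capitals, each as 30 bases on the strand of the gene, read 5′ to 3′, so that its place and surroundings can be seen.

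Mybbp1a, chr11:72441347-72441376, plus strand: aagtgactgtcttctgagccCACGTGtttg
Nle1, chr11:82908355-82908384, minus strand: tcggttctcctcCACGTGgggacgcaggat
Nop2, chr6:125131811-125131840, plus strand: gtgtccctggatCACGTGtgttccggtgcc
Pes1, chr11:3963965-3963994, plus strand: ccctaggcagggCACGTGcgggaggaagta
Tsr1, chr11:74898092-74898121, plus strand: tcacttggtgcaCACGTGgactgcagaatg
Utp20, chr10:88826765-88826794, minus strand: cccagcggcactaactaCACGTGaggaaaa
Wdr43, chr17:71616220-71616249, plus strand: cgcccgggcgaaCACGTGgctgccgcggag

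In Nop2 the E-box begins 60 bases before the start, and in the other 6 it lies after it, from 2 bases in Pes1 and 17 in Wdr43 to 40 in Mybbp1a. In the 250 bases before the start alone, CACGTG was in 1 of the 28 genes, or 3.57%, against 6.02% of all windows and 9.74% of the genes past the filter. The count of 7 thus rests on the 50 bases after the start.

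The 7 genes with the E-box in this window had a median LSK difference of 0.40 (from 0.16 for Tsr1 to 0.77 for Nle1) and an MP difference of 0.19, and the 21 without it 0.37 (from 0.23 to 1.06 for Ftsj3) and 0.14. Of the other letters searched on both strands, with overlaps kept, GGGCGG, the GC box, was in 21 of the 28 windows (75%, against 66.6% of the genes past the filter), CACGCG in 6 (21.4% against 19.3%), CATGTG in 6 (21.4% against 10.8%) and TATAA in 4 (14.3% against 16.6%). A match is a run of letters and no binding was measured.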

How the data were processed

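RNA of 4 sorted populations of mouse marrow was measured on Affymetrix arrays, 1 per group. Per the labels' protocols, 20 ng of total RNA was amplified in 2 cycles and labelled with biotin, a method that favours the 3′ end of transcripts. The authors deposited linear intensity values, 1 per probe set, made with RMA per the submitters' processing notes (version not stated). RMA usually brings the arrays' distributions close to each other (upper quartiles here ran from 579 to 638), so changes shared by most genes, and total RNA per cell, are not seen, and differences of dim genes tend to be compressed. Samples were grouped by their titles.

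Of 45101 probe sets, 34945 name 1 gene in the platform annotation; symbols were updated by gene ID through RefSeq (34741 matched), and 3 older names by hand. Probe sets naming several genes (932) or none (9224) were left out. Each of 18193 genes was given on its brightest probe set by mean log2, and kept where its highest array reached 157. Differences are of log2 values of the deposited intensities, computed with Python 3.11.15, numpy 2.4.6 and pandas 2.3.3, plotted with matplotlib 3.10.9, and checked on simulated data. With 1 array per group, a gene counts as called past a log2 difference of 0.322 or past 2-fold, and no test was made.

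The 33 genes and the lists were chosen with earlier results of these data known, so the direction of the 33 in LSK is no independent finding. All 33 are named in the text; of the further list, the 5 highest and 5 lowest differences in LSK and the 3 in MP; of marker lists, their best known genes; and Myc, Mycn, Max and Fbxw7. Mxd1, Mxd4, Birc5, Rrm2, Tyms and the Mcm genes were named after their values were seen. The alternatives were the mean of all probe sets, leaving out the _s_, _x_ and _a_ kinds, shifting or quantile normalizing the arrays, log2 of value plus 32, no level filter, and a stricter one.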

Additional observations from a re-analysis of the deposited data

Results flagged for a closer look

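Nip7 had a genotype difference of 0.34 in LSK and of -0.48 in MP, opposite directions, each past 0.322, and the difference between them was 0.82 (log2). With 1 array per group it was not tested. On its dimmer probe set both values were below 0, -0.52 and -0.09.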

How the results depend on the processing

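No paired analysis was possible because each group has 1 array, which leaves no second pair to fit a block on. Within each genotype both populations were sorted from 1 pool of mice, so LSK minus MP is a difference within a pool. With no replicates, a median is taken as kept within 0.1 (log2) and a count within 1.5 times. Both changes of the level filter left all values of the 33 genes as they were by construction, since all 33 pass it. Over the other 5 alternatives and the shorter promoter window, 100 values of the counts and medians were kept and 6 were not, and every median kept its sign. The number of genes past 0.322 upward in Fbw7-deficient MP was 5, not 8, with the mean of all probe sets and 5 without the _s_, _x_ and _a_ kinds, which leaves 29 genes. In wild-type LSK against MP, 2 genes, not 1, were above 0 with the mean of all probe sets and with arrays shifted to the same median; in Fbw7-deficient LSK against MP, 10, not 6, were above 0 with the mean of all probe sets. The CACGTG count was 1 in the bases before the start alone. On single further probe sets, 15 values went against a difference past 0.322 on the brightest one. In the LSK genotype difference these were Bop1 (-0.0013), Wdr12 (-0.26), Pes1 (-0.12), Nip7 (-0.52) and Nat10 (-0.25). In wild-type LSK minus MP they were Nolc1 (0.35), Ddx18 (0.044), Bop1 (0.095), Wdr12 (0.43), Pes1 (0.27), Nop16 (0.025), Nip7 (0.67) and Nat10 (0.0030), and in Fbw7-deficient LSK minus MP Nolc1 (0.11 and 0.51). The cause was not tested; all but those of Nolc1 have mean intensities under 750. Signals near the filter and 1 array per group limit what these values show.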
